A study of Mus musculus with 12 samples.

Results

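The 10 genes described here encode proteins that cells use to take up and store lipid. They are Lpl, Cd36, Fabp4, Fabp5, Msr1, Olr1, Scarb1, Vldlr, Plin2 and Lipa, chosen by name from 18194 genes on the array. Together they have 29 of its 45101 probe sets, and the brightest probe set by mean over 12 arrays stood for each gene. RNA of whole corneas from C57BL/6J mice was measured on Affymetrix arrays, 1 array per sample. Intact corneas came from mice null for both Dscr1 and Apoe (double KO), for Dscr1 alone (Dscr1KO), for Apoe alone (ApoeKO), and from wild-type mice (WT), with 2 biological replicates each. Sutured corneas had 1 array each, from a Dscr1KO mouse at day 5, a WT mouse at day 5, a Dscr1 transgenic mouse (Tg) at day 7 and a WT mouse at day 7. No label gives the transgene's promoter, or the sex or age of the mice. Dscr1, now named Rcan1, encodes an inhibitor of the phosphatase calcineurin, and Apoe encodes a lipoprotein component that cell receptors recognise.

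Cells obtain fatty acids from lipoproteins when lipoprotein lipase, the product of Lpl, cuts triglyceride at the wall of small vessels. CD36 then helps fatty acids across the cell membrane, and the fatty acid binding proteins FABP4 and FABP5 carry them inside. Whole lipoproteins enter through receptors such as those made from Vldlr, Msr1 and Olr1, and Scarb1 encodes the HDL receptor SR-BI. Lysosomal acid lipase (Lipa) frees the lipid of lipoproteins taken in, and perilipin 2 (Plin2) coats the droplets in which lipid is stored. Macrophages and capillary endothelium are known for several of these proteins, while the normal central cornea has no blood vessels.

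All intensities are linear units as deposited, array medians lay between 15.6 and 21.1, and the small number of arrays limits the precision. Differences are on the scale log2(intensity + 3.6), tested in limma, and p-values were adjusted by Benjamini and Hochberg's method over 12706 genes, with a threshold of 0.05. The array labelled ApoeKO replicate 1 read Apoe at 849.3, against 7.5 on the other ApoeKO array and 776.5 to 1030.5 in WT, so its level goes against its label. A source label of the Dscr1KO replicate 2 array names an Apoe-null mouse, while its Apoe value was 316.8. Rcan1 read 379.6 and 331.7 in double KO and 477.5 and 335.9 in Dscr1KO corneas, against 668.2 and 581.3 in ApoeKO and 630.4 and 649.5 in WT. Xist, transcribed in female cells, was high on double KO replicate 1 and on both Dscr1KO and both ApoeKO arrays (4104 to 5385.2), against 8.9 and 14.9 in WT, so Xist and genotype cannot be told apart in most comparisons with WT. All 6 corneal epithelial and all 5 keratocyte markers lay above the low-value limit on every array. Of the epithelial markers Pax6 was called lower in the average for Dscr1 loss described below (1008.2 to 2458.6 without Dscr1, against 3118.4 to 3600.6 with it in intact corneas). Of the keratocyte markers, Kera (441.3 to 1677, against 3451.6 to 4992.8) and Aldh1a1 (143.2 to 677.1, against 1005.3 to 1329) were called lower, and no gene of either list was called higher.

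Promoters of 5 of the 10 genes were found by symbol in the RefSeq promoter table (GRCm38.p6), as the 250 bases before an annotated start. They belong to Cd36, Lipa, Olr1, Plin2 and Vldlr, and Vldlr has 2 annotated starts, while Lpl, Fabp4, Fabp5, Msr1 and Scarb1 had no match. Those of the 3 genes that passed the test of Dscr1 loss described below are printed. Capitals mark GGAAA, the core bound by NFAT proteins, which calcineurin activates, or AGGTCA, the half-site of nuclear receptors such as the PPARs. Either may stand on the other strand as TTTCC or TGACCT, and neither motif overlaps the other. They cover Cd36 at chr5:17835897-17836146 on the minus strand, Lipa at chr19:34527475-34527724 on the minus strand, and Vldlr at chr19:27216234-27216483 and chr19:27216770-27217019 on the plus strand.
Cd36: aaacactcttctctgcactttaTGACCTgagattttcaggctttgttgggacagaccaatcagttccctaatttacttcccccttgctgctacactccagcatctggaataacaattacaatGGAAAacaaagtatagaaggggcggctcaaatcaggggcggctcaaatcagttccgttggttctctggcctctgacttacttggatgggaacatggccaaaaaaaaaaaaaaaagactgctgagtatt
Lipa: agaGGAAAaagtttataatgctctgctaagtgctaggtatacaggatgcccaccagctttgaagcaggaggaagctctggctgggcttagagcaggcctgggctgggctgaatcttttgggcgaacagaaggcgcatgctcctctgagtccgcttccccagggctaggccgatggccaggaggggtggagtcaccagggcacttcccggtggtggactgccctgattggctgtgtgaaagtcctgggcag
Vldlr, upstream start: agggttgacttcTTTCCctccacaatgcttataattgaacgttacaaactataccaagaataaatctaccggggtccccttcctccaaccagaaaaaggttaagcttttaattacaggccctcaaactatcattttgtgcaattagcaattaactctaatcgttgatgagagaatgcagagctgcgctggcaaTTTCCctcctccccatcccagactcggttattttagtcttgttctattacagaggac
Vldlr, downstream start: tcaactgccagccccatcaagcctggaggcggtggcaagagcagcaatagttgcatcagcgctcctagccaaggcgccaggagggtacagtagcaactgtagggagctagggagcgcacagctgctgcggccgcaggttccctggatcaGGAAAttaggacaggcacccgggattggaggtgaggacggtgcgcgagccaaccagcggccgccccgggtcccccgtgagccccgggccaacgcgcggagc
Counted from the start, the Cd36 window holds GGAAA at positions -128 to -124 and AGGTCA on the other strand at -228 to -223. The letters GGGCGG, a GC box, also occur there at -109 to -104 and again at -93 to -88. The Lipa window holds GGAAA at -247 to -243. Across all 32851 promoters of the table, on either strand, 55.6% hold GGAAA, 14.0% hold AGGTCA and 32.7% hold GGGCGG. Olr1 and Plin2 windows also hold both GGAAA and AGGTCA. A match is a description of these letters and does not show binding.

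Loss of Dscr1 in intact corneas went with higher Fabp4 and Msr1, and less steadily with higher Lpl, Cd36, Lipa and Fabp5 and lower Vldlr. The average described next passed in 19 of 19 alternative analyses for Fabp4 and 16 of 17 for Msr1. It passed in 13 of 19 for Lpl, 9 of 19 for Lipa and for Vldlr, 7 of 18 for Cd36 and 6 of 19 for Fabp5. Over both Apoe labels, the average of Dscr1KO minus WT and double KO minus ApoeKO called 6 of the 9 genes tested higher and 1 lower, while 16.3% of all genes were called higher and 15.4% lower (31.7% in all). The median difference of the 9 was 0.71, against -0.02 over all genes. In double KO against WT 4 were called, all higher (11.4% of genes higher and 8.74% lower, 20.1% in all), namely Fabp4, Lpl, Cd36 and Msr1. In Dscr1KO against WT 3 were called, all higher (7.86% of genes higher and 3.9% lower, 11.8% in all), namely Fabp4, Msr1 and Fabp5, and in double KO against ApoeKO also 3, all higher (11% of genes higher and 8.61% lower, 19.6% in all), namely Fabp4, Msr1 and Plin2. These comparisons share arrays, so their counts are not independent. Fabp4, Cd36 and Msr1 lay below the low-value limit on both intact WT arrays and passed the filter through other arrays. Their differences from WT are therefore also given as lower bounds. These bounds hold for the observed group means only and make no allowance for the spread between arrays. The 5 intact arrays with Xist hold no WT array, so a different contrast was fitted there. It set double KO replicate 1 and both Dscr1KO arrays against both ApoeKO arrays, which mixes the Dscr1 and Apoe labels. This difference was 1.32 for Lpl (adjusted p = 0.424), 0.52 for Cd36 (adjusted p = 0.676), 4.71 for Fabp4 (adjusted p = 0.0448) and 0.28 for Fabp5 (adjusted p = 0.536). For Msr1 it was 2.38 (adjusted p = 0.0705), for Vldlr -1.06 (adjusted p = 0.246) and for Lipa 0.47 (adjusted p = 0.329), so Fabp4 alone passed there. The 4 arrays without Dscr1 did not overlap the 4 arrays with Dscr1 in 3 of the 9 genes, Fabp4, Msr1 and Lipa, against 34.6% of all genes. The 2 arrays a group of double KO and WT did not overlap in 7 of the 9 genes (66.5% of all), those of Dscr1KO and WT in 7 (61%) and those of double KO and ApoeKO in 5 (66.1%), so such separation between 2 pairs of arrays was common. In whole corneas, more cells of a type and more RNA per cell cannot be told apart.

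**Figure D1:**
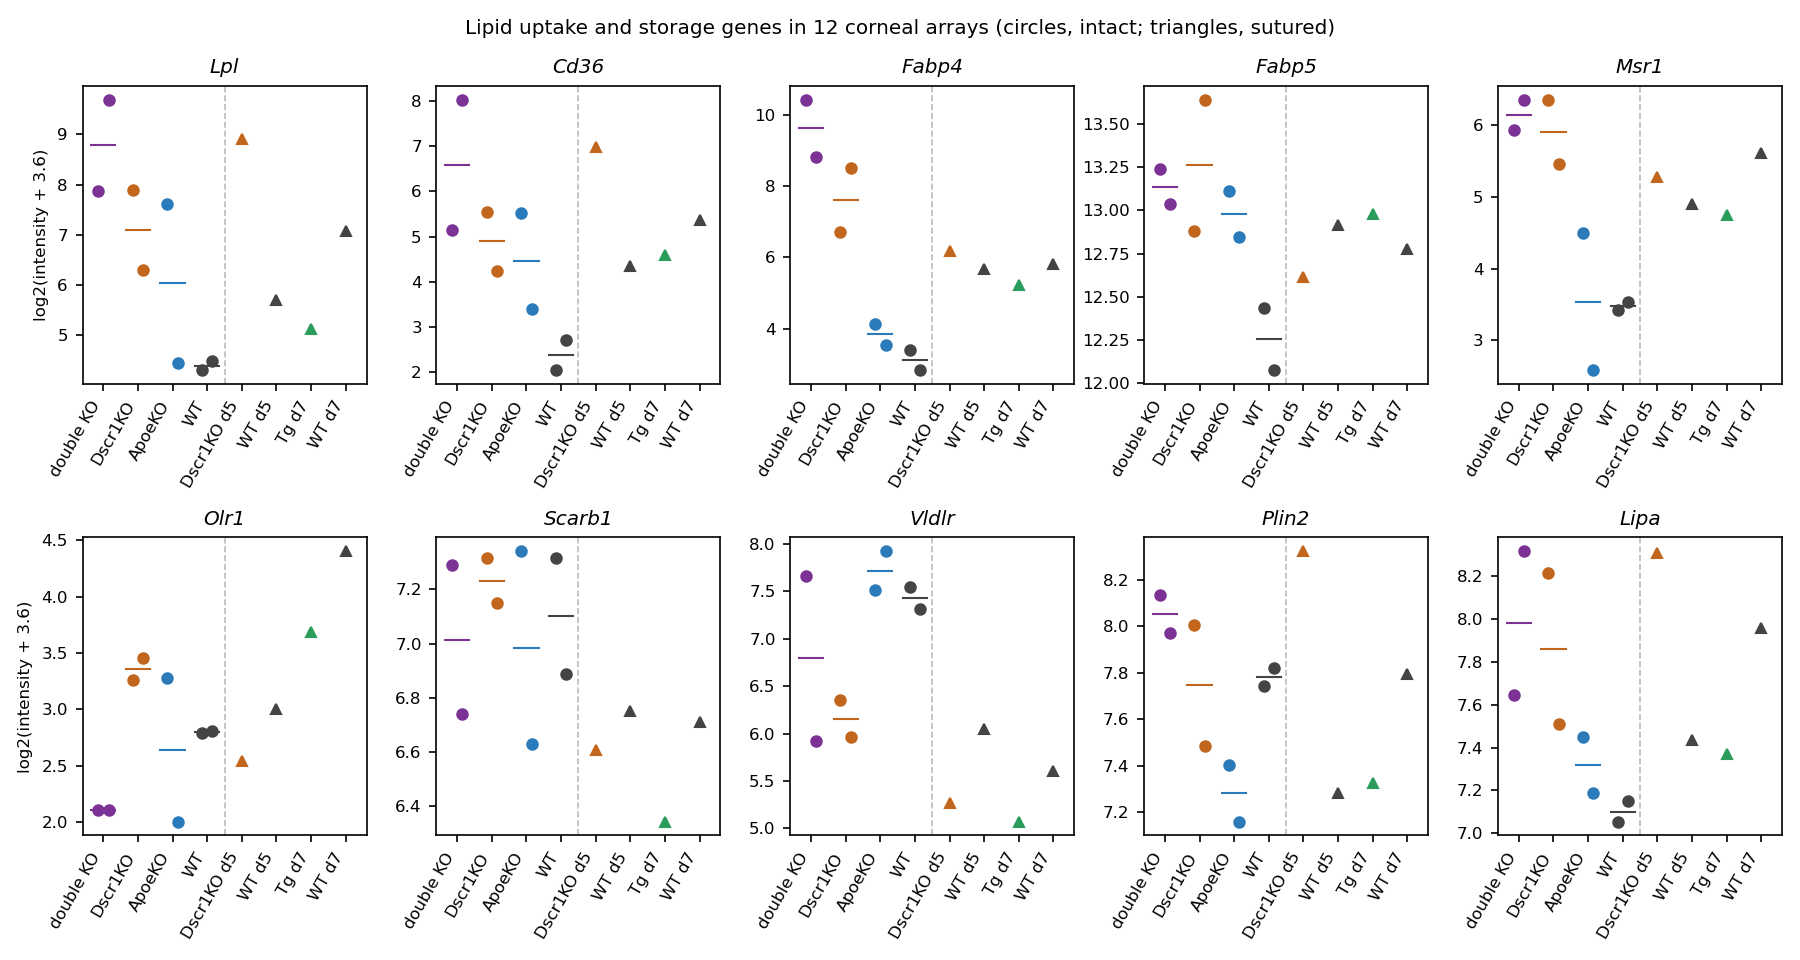
Intensity of each of the 10 genes as log2(intensity + 3.6) on the 12 arrays, with intact groups as circles (mean as a bar, n = 2) left of the dashed line and single sutured arrays as triangles right of it. Fabp4 and Msr1 lie higher on all 4 intact arrays without Dscr1 than on the 4 with it, and the vertical scale differs between panels.

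Lpl, which lies on chromosome 8 (68880555 to 68906932), encodes the lipase that releases fatty acids from circulating triglyceride. It read 229.7 and 824.8 in double KO corneas, 233.4 and 75.5 in Dscr1KO, 192.9 and 18.2 in ApoeKO and 16.1 and 18.7 in WT. Both groups without Dscr1 lay above WT, but ApoeKO replicate 1, the array whose Apoe level goes against its label, lay within their range. The difference of double KO minus WT was 4.39 ± 1.03 on the log2 scale (SE, adjusted p = 0.0215), and the average for Dscr1 loss was 2.73 ± 0.72 (adjusted p = 0.0247). The Lpl value of Dscr1KO minus WT was 2.71 ± 1.03 (adjusted p = 0.126), and of double KO minus ApoeKO 2.75 ± 1.03 (adjusted p = 0.0988). Without the arrays of doubtful Apoe level or label, the average for Lpl was 3.92 (adjusted p = 0.00561) and double KO minus ApoeKO reached 4.33 (adjusted p = 0.0167), which also passed without ApoeKO replicate 1 alone (adjusted p = 0.0342). The average for Lpl did not pass without ApoeKO replicate 2 (1.93, adjusted p = 0.0523), double KO replicate 2 (2.27, adjusted p = 0.0749), WT replicate 1 (2.68, adjusted p = 0.0773) or WT replicate 2 (2.77, adjusted p = 0.0757). In double KO against WT the same held without double KO replicate 2 (adjusted p = 0.101) and without either WT array (adjusted p = 0.113 without replicate 1 and 0.115 without replicate 2).

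Cd36, on chromosome 5 (17781690 to 17888959), encodes a fatty acid transporter that is also a scavenger receptor for oxidised lipoproteins. It read 32 and 258.8 in double KO corneas, 42.9 and 15.3 in Dscr1KO, 42.1 and 6.9 in ApoeKO and 0.5 and 2.9 in WT. Both WT values lay below 9.5, the intensity at the low-value limit for testing, and double KO replicate 2 was far above every other array. Set against that limit, geometric mean Cd36 was at least 9.57-fold higher in double KO and at least 2.7-fold higher in Dscr1KO than in WT. Both figures leave out the spread between the 2 arrays of a group. Double KO minus WT was 4.23 ± 1.01 (SE, adjusted p = 0.0237), and the average for Dscr1 loss was 2.33 ± 0.72 (adjusted p = 0.0412). Cd36 values of Dscr1KO minus WT, 2.52 ± 1.01 (adjusted p = 0.145), and of double KO minus ApoeKO, 2.14 ± 1.01 (adjusted p = 0.178), did not pass. The Cd36 average no longer passed without ApoeKO replicate 2 (1.80, adjusted p = 0.135), double KO replicate 2 (1.61, adjusted p = 0.0918), Dscr1KO replicate 1 (2.01, adjusted p = 0.0823), WT replicate 1 (2.17, adjusted p = 0.123) or WT replicate 2 (2.50, adjusted p = 0.0926). Without double KO replicate 2 its difference from WT was 2.79 (adjusted p = 0.0911), and without WT replicate 1 or 2 it was 3.89 (adjusted p = 0.132) or 4.56 (adjusted p = 0.104). Without both doubtful arrays the Cd36 average was 3.19 (adjusted p = 0.0435).

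Lpl and Cd36 moved together over the arrays. The gene whose log2 values were most like those of Lpl over the 12 arrays was Cd36 (Pearson r = 0.946), and Lpl was likewise the first for Cd36. Next came Arhgap15 for Lpl (r = 0.927) and C3ar1, a complement receptor gene, for Cd36 (r = 0.918). The 12 arrays share genotype groups and are not 12 independent points, so these values describe likeness only.

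Fabp4, on chromosome 3 (10204342 to 10208616), encodes the fatty acid binding protein of fat cells, macrophages and capillary endothelium. It read 1379.3 and 449 in double KO corneas and 100.8 and 359.6 in Dscr1KO, against 14 and 8 in ApoeKO and 7 and 3.5 in WT. The 4 arrays without Dscr1 lay far above the 4 with it, which read 14 or less, and the double KO arrays lay above the Dscr1KO arrays. Both WT values and 1 of 2 ApoeKO values lay below the limit of 9.5, so the WT level is only a bound, and geometric mean Fabp4 was at least 82.8-fold higher in double KO and at least 20.03-fold higher in Dscr1KO than in WT. Its fitted differences, which use the values below the limit as deposited, were the largest among the 9 genes tested in these comparisons, at 6.51 ± 0.67 for double KO minus WT (SE, adjusted p = 0.00107), 4.49 ± 0.67 for Dscr1KO minus WT (adjusted p = 0.00699) and 5.79 ± 0.67 for double KO minus ApoeKO (adjusted p = 0.00192). The average for Fabp4 was 5.14 ± 0.48 (adjusted p = 3.46e-04) and passed in each of 19 alternative analyses, between 2.72 and 5.59. Dscr1KO minus WT passed in 17 of 18 for Fabp4, the exception being without WT replicate 2 (4.20, adjusted p = 0.0681). Double KO minus Dscr1KO was 2.02 ± 0.67 (adjusted p = 0.410). The genes most like Fabp4 over the 12 arrays were Pla1a, a phospholipase gene (r = 0.977), and Dmxl2 (r = 0.976).

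Fabp5, its neighbour on chromosome 3 (10012585 to 10016610), encodes the epidermal fatty acid binding protein. It read 9652.4 and 8408.6 in double KO corneas, 7536.2 and 12774 in Dscr1KO, 8846.1 and 7347.9 in ApoeKO and 5542.6 and 4312 in WT. WT was lowest, while ApoeKO overlapped both groups without Dscr1. Dscr1KO minus WT was 1.0 ± 0.27 (SE, adjusted p = 0.0490) and the average for Dscr1 loss was 0.58 ± 0.19 (adjusted p = 0.0487), both just past the threshold. For Fabp5 double KO minus WT was 0.88 ± 0.27 (adjusted p = 0.0531) and double KO minus ApoeKO 0.16 ± 0.27 (adjusted p = 0.707). The first of these passed for Fabp5 without either Dscr1KO array (adjusted p = 0.0109 without replicate 1 and 0.0110 without replicate 2). The Fabp5 average passed in 6 of 19 alternatives, and of the 8 arrays left out in turn only the fit without Dscr1KO replicate 1 kept it (0.77, adjusted p = 0.00485), while the others gave 0.39 to 0.67 with adjusted p of 0.0699 to 0.168. The same array alone kept Dscr1KO minus WT for Fabp5 past the threshold when left out (1.38, adjusted p = 0.00506), and the other 7 fits gave adjusted p of 0.0692 to 0.277. Its dimmer probe set read 8612.3 and 7264 in double KO, 4266 and 10920 in Dscr1KO, 4135.6 and 3550.5 in ApoeKO and 2164.5 and 1677.9 in WT. On that probe set the 4 arrays without Dscr1 lay above the 4 with it, and the average difference was 1.44.

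Msr1, on chromosome 8 (39543232 to 39642750), encodes the class A scavenger receptor of macrophages, which takes up modified lipoproteins. It read 57.2 and 77.9 in double KO corneas and 78.2 and 40.5 in Dscr1KO, against 18.9 and 2.4 in ApoeKO and 7.1 and 8 in WT. The 4 arrays without Dscr1 lay above the 4 with it, of which only ApoeKO replicate 1 reached the limit of 9.5. Set against that limit, geometric mean Msr1 was at least 7.02-fold higher in double KO and at least 5.92-fold higher in Dscr1KO than in WT. With the low values as deposited, double KO minus WT was 2.66 ± 0.60 (SE, adjusted p = 0.0192), Dscr1KO minus WT 2.43 ± 0.60 (adjusted p = 0.0396) and double KO minus ApoeKO 2.60 ± 0.60 (adjusted p = 0.0220). The Msr1 average was 2.51 ± 0.43 (adjusted p = 0.00407) and passed in 16 of 17 alternatives, the exception being the fit on the 5 intact arrays with Xist (2.38, adjusted p = 0.0705). The difference from WT lost its call in the double KO without either double KO array (adjusted p = 0.0632 without replicate 1 and 0.0793 without replicate 2) or either WT array (0.105 and 0.107). In Dscr1KO minus WT the call of Msr1 held without either ApoeKO array and was lost without any 1 of the other 6 (adjusted p = 0.0569 to 0.195). Double KO minus ApoeKO was lost for Msr1 without ApoeKO replicate 2 (1.65, adjusted p = 0.101), double KO replicate 1 (2.81, adjusted p = 0.0692) or double KO replicate 2 (2.39, adjusted p = 0.0854). The genes most like Msr1 over the 12 arrays were Tnfrsf1b, a TNF receptor gene (r = 0.985), and Tlr13, a Toll-like receptor gene (r = 0.968).

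Olr1, on chromosome 6 (129479150 to 129507350), encodes a receptor for oxidised LDL. It read 0.7 and 0.7 in double KO corneas, 6 and 7.4 in Dscr1KO, 6.1 and 0.4 in ApoeKO and 3.3 and 3.4 in WT. Every intact value lay below the limit for testing, which corresponds to an intensity of 9.5, and no order is read from such values. The highest Olr1 value of all arrays was 17.6, in the sutured WT cornea at day 7.

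Scarb1, on chromosome 5 (125277087 to 125341094), encodes the HDL receptor SR-BI. It read 152.8 and 103.4 in double KO corneas, 155.7 and 138.4 in Dscr1KO, 158.6 and 95.4 in ApoeKO and 155.9 and 114.8 in WT. The groups overlapped, and the spread within 3 of the 4 groups was as large as any gap between group means. Its average difference for Dscr1 loss was 0.08 ± 0.21 (SE, adjusted p = 0.801).

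Vldlr, on chromosome 19 (27216480 to 27254231), encodes a receptor for very low density lipoprotein and for APOE. It read 199.1 and 56.9 in double KO corneas and 78 and 58.7 in Dscr1KO, against 178.6 and 239 in ApoeKO and 182.8 and 155.8 in WT. Both Dscr1KO arrays and double KO replicate 2 lay below the 4 arrays with Dscr1, while double KO replicate 1 lay among them. That array alone had bright photoreceptor genes, with a summed intensity over 3 genes of 3175.1, against 12.1 to 255.4 elsewhere, and the part of this in the Vldlr value was not tested. The average for Dscr1 loss fell by 1.10 ± 0.35 (SE, adjusted p = 0.0464), and without double KO replicate 1 the Vldlr value was -1.54 (adjusted p = 0.00303). Without double KO replicate 2 it was -0.66 (adjusted p = 0.0352), and without both doubtful arrays -1.11 (adjusted p = 0.165). The Vldlr call was also lost without ApoeKO replicate 1 (adjusted p = 0.0900), ApoeKO replicate 2 (adjusted p = 0.145), Dscr1KO replicate 2 (adjusted p = 0.105), WT replicate 1 (adjusted p = 0.134) or WT replicate 2 (adjusted p = 0.112). Dscr1KO minus WT was -1.27 ± 0.50 (adjusted p = 0.134) and double KO minus WT -0.64 ± 0.50 (adjusted p = 0.402). The value for Dscr1KO minus WT passed when either double KO array was left out of the shared spread (adjusted p = 0.0207 without replicate 1 and 0.0197 without replicate 2). Without double KO replicate 1, Vldlr passed in double KO minus WT (-1.51, adjusted p = 0.0225) and in double KO minus ApoeKO (-1.80, adjusted p = 0.0179).

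Plin2, on chromosome 4 (86626910 to 86670217), encodes the coat protein of lipid droplets found in most cells. It read 277.6 and 247.3 in double KO corneas, 253.6 and 175.3 in Dscr1KO, 165.8 and 139.2 in ApoeKO and 210.8 and 222.4 in WT. The double KO arrays lay above both WT and ApoeKO arrays, and the ApoeKO arrays were lowest. Double KO minus ApoeKO was 0.77 ± 0.21 (SE, adjusted p = 0.0402), and double KO minus WT was 0.27 ± 0.21 (adjusted p = 0.408). The Plin2 call against ApoeKO was lost without either ApoeKO array (adjusted p = 0.117 without replicate 1 and 0.239 without replicate 2), either double KO array (0.145 and 0.0727) or either WT array (0.0861 and 0.0867). The average for Dscr1 loss was 0.37 ± 0.15 (adjusted p = 0.100) for Plin2 and passed without both doubtful arrays (0.56, adjusted p = 0.0336) and without Dscr1KO replicate 2 alone (0.50, adjusted p = 0.0173).

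Lipa, on chromosome 19 (34492316 to 34527474), encodes the lysosomal lipase that frees cholesterol and fatty acids from lipoprotein taken into the cell. It read 196.5 and 314.9 in double KO corneas and 293 and 178.6 in Dscr1KO, against 171.3 and 142.1 in ApoeKO and 129.3 and 138.3 in WT. The 4 arrays without Dscr1 lay above the 4 with it, with a small gap between 178.6 and 171.3. The average for Dscr1 loss was 0.71 ± 0.21 (SE, adjusted p = 0.0360). Single comparisons of Lipa did not pass, at 0.88 ± 0.30 for double KO minus WT (adjusted p = 0.0752), 0.76 ± 0.30 for Dscr1KO minus WT (adjusted p = 0.135) and 0.66 ± 0.30 for double KO minus ApoeKO (adjusted p = 0.158). Without either Dscr1KO array the Lipa value of double KO minus WT passed (adjusted p = 0.0284 without replicate 1 and 0.0281 without replicate 2). The Lipa average passed without double KO replicate 1 (0.88, adjusted p = 0.0229) and without Dscr1KO replicate 2 (0.89, adjusted p = 0.0115), and was lost without any 1 of the other 6 arrays (0.53 to 0.78, adjusted p = 0.0513 to 0.126). The genes most like Lipa over the 12 arrays were Ly86 (r = 0.974) and Cd48 (r = 0.961), both known from immune cells.

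**Figure D2:**
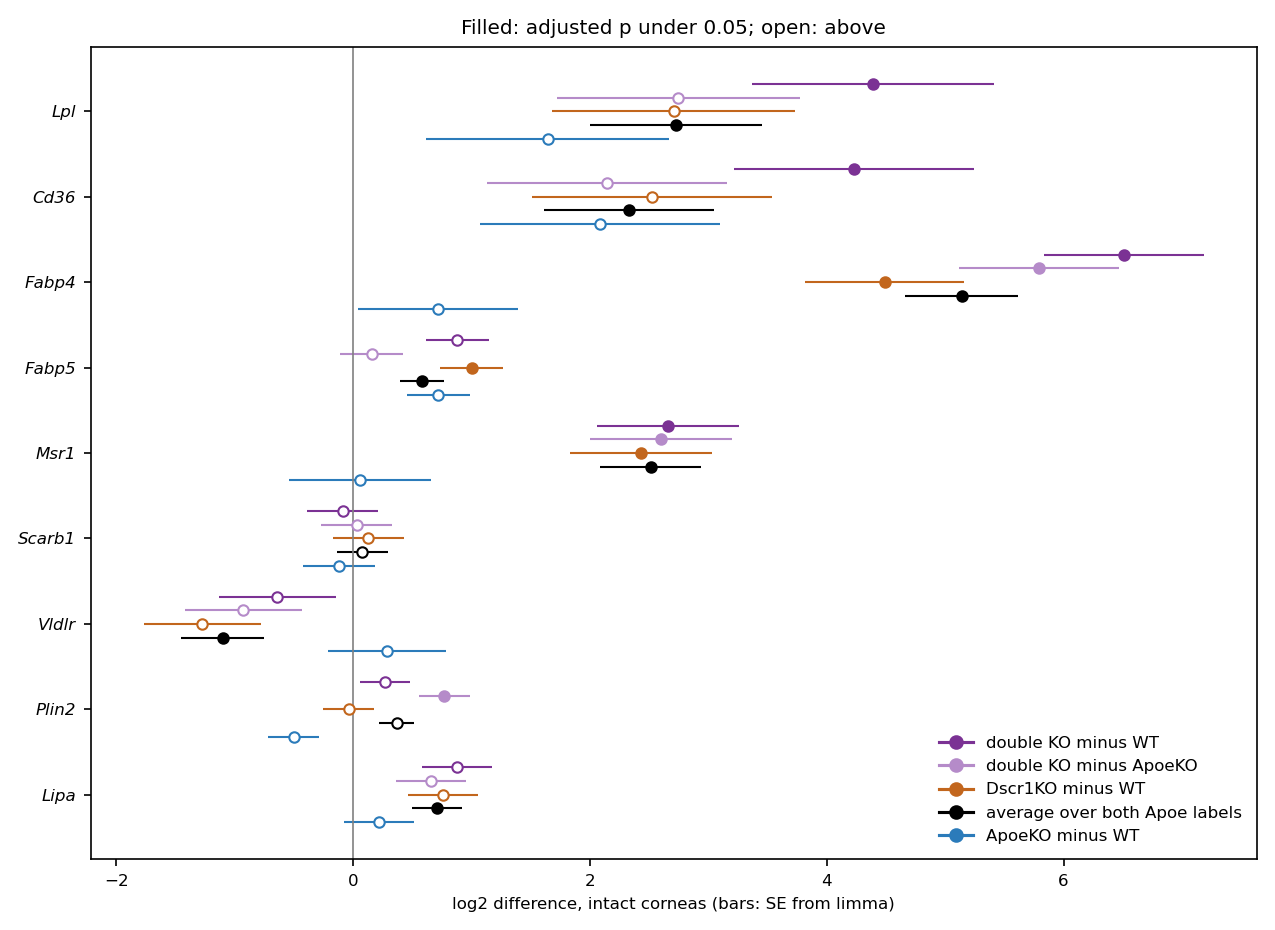
Log2 differences between intact groups for the 9 genes tested, with SE bars from limma, filled where the adjusted p is under 0.05. Fabp4 and Msr1 are filled in each of the 4 comparisons that involve loss of Dscr1, and no gene is filled for ApoeKO minus WT.

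Loss of Apoe moved none of the 9 genes past the threshold in limma. In ApoeKO against WT 0 were called (0.0236% of all genes), while 2 had an unadjusted p under 0.05, Fabp5 at 0.72 ± 0.27 and Plin2 at -0.50 ± 0.21 on the log2 scale (adjusted p = 0.99997 for each). Of the ApoeKO arrays, replicate 1 held the higher Lpl, Cd36, Fabp4 and Msr1 values and is also the array with Apoe at 849.3. In double KO against Dscr1KO 0 were called (0.0236%), and 1 gene, Fabp4, had an unadjusted p under 0.05. The interaction of both losses called 0 (0.00787%), with Plin2 alone at an unadjusted p under 0.05, at 0.81 ± 0.30 (adjusted p = 0.620). With 2 arrays a group, these values do not show that loss of Apoe leaves the genes at the same level.

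Separate probe sets of a gene mostly gave the same direction as the set used. Of the 22 probe sets at or above the low-value limit, each moved the same way as its gene's brightest set under Dscr1 loss except 1 of 5 for Vldlr, which gave 0.34 where the set used gave -1.10. The second Lpl set gave 1.03 against 2.73, the second Cd36 set 1.66 against 2.33, the second Fabp4 set 3.87 against 5.14 and the second Msr1 set 1.77 against 2.51. The 3 Lipa sets gave 0.62 to 0.86. In double KO minus WT the Vldlr sets were split in direction. The set used gave -0.64 there, and the others gave -0.17, -0.01, 0.40 and 1.16. The sets used for Vldlr and Scarb1 are of a class that may also bind related transcripts. With the mean over all probe sets of a gene, Fabp4 (2.72, adjusted p = 0.00181) and Fabp5 (1.01, adjusted p = 0.0162) were the only ones of 8 tested that passed in the average.

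**Figure D3:**
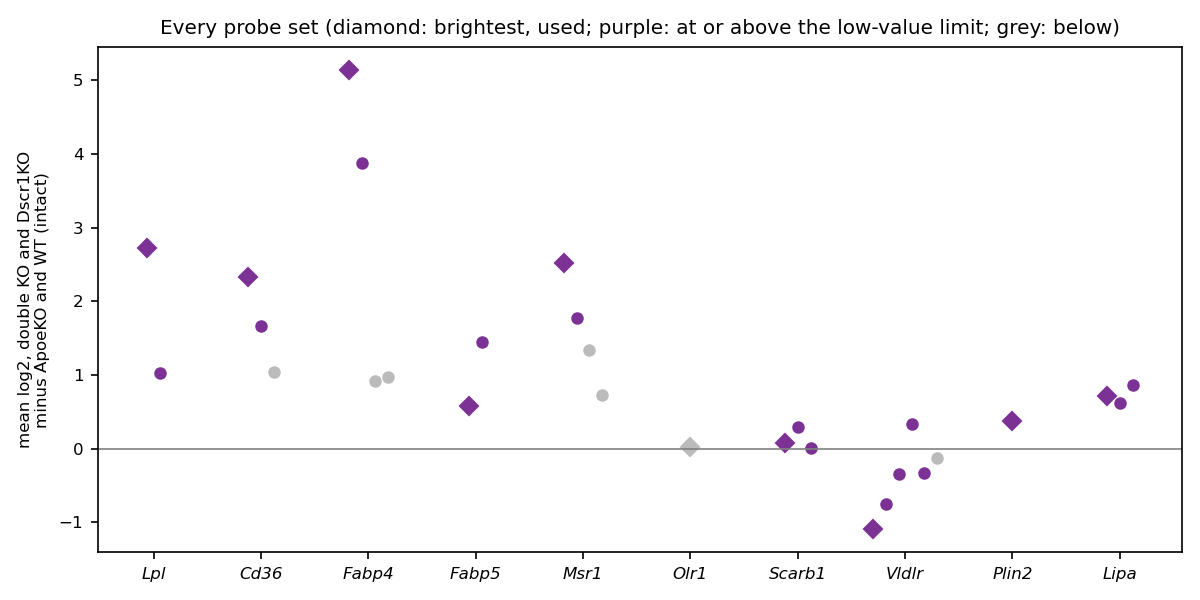
Average log2 difference of intact corneas without Dscr1 minus those with Dscr1 for each of the 29 probe sets, with a diamond for the brightest set of a gene and grey for sets below the low-value limit. All purple points of Lpl, Cd36, Fabp4, Fabp5, Msr1 and Lipa lie above 0, while those of Vldlr lie between -1.10 and 0.34.

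Marker genes of other cell types differed between the same arrays. Counts called in the average stand beside 16.3% of all genes called higher and 15.4% lower. Macrophage markers such as Csf1r, C1qa and Mpeg1 summed to 3790.8 to 9870.7 over 12 genes in intact corneas without Dscr1, against 522.6 to 1937 in those with it, and 11 of 12 were called higher in the average. Within double KO, Dscr1KO and ApoeKO, the array with the higher macrophage sum also had the higher Lpl, Cd36, Msr1 and Lipa values. In WT the values of these genes ran the other way. WT replicate 1 had the slightly higher macrophage sum (538.6, against 522.6) but the lower Lpl (16.1, against 18.7) and Lipa (129.3, against 138.3). Cd36 and Msr1 were also lower on it, but both WT values of each lay below the low-value limit. Fabp4 and Fabp5 ran against the macrophage sum in double KO and Dscr1KO. The same held for Plin2 in double KO and WT, Scarb1 in double KO and Vldlr in double KO and ApoeKO. Blood endothelial markers such as Cdh5, Pecam1 and Vwf summed to 1022.7 to 1753.4 over 10 genes, against 102.2 to 121.6, and 7 of 8 tested were called higher. On each intact array with Dscr1, 7 to 9 of these 10 genes lay below the low-value limit. Cornified epithelial markers such as Lor, Krtdap and Krt10, known from skin rather than cornea, summed to 17144 to 34068 over 8 genes, against 202.5 to 271.5, and 8 of 8 were called higher. Of these 8, 4 to 6 lay below the limit on each intact array with Dscr1. Double KO replicate 1 had higher endothelial (1435.3, against 1221) and cornified sums (31350.5, against 29954.7) than replicate 2. Dscr1KO replicate 2 had higher sums (1753.4, against 1022.7, and 34067.6, against 17144.3) than replicate 1. In these 2 groups Fabp4 and Fabp5 ran with both sums, while Lpl, Cd36, Msr1 and Lipa ran against both. Such orders rest on 2 arrays a group and were not tested. Corneal epithelial markers summed to 24607 to 36490 over 6 genes, against 27564 to 38061, with 1 of 6 called lower, and keratocyte markers to 10086 to 13127 over 5 genes, against 11957 to 17670, with 2 of 5 called lower. Lens markers summed to 24.1 to 273.5 over 4 genes, against 60.8 to 3802.4, and 4 of 4 were called lower. Photoreceptor markers summed to 18.6 to 3175.1, against 17.2 to 255.4, and 0 of 2 tested were called. Adipocyte markers summed to 326.9 to 4989.5 over 7 genes, against 6167 to 7473.1, and 0 of 2 tested were called. That sum rested mostly on Car3 (254.1 to 7390.7 over the intact arrays), which did not pass in the average (-2.67 ± 1.01, adjusted p = 0.0794), and Lipe read 39.4 to 59.6. Of the other adipocyte genes, Adipoq, Cidec and Lep lay below the limit on all intact arrays (at most 5.8), while Retn reached 18 and Adig 11.4. Skeletal muscle markers summed to 90.8 to 117.5, against 174.6 to 208.8, with 1 of 3 tested called lower, and sebaceous and meibomian markers to 28.3 to 45, against 28.3 to 44.9, with 0 of 1 tested called. The part of these cells in the lipid gene differences was not tested.

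Other genes of lipid uptake and storage were taken from 7 lists of 69 genes, of which 49 were tested. In the average for Dscr1 loss 18 of them were called higher and 5 lower, or 46.9%, beside 31.7% of all genes, with a median of 0.39. Double KO against WT called 13 higher and 4 lower (34.7%, beside 20.1% of all genes), Dscr1KO against WT 12 higher and 0 lower (24.5%, beside 11.8%), and double KO against ApoeKO 12 higher and 3 lower (30.6%, beside 19.6%). The lists were chosen with earlier results of these data known, so these shares are no independent test. Some of their genes, such as Cd68 and Gpihbp1, are also in the marker lists.

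Of genes that work with the lipase, Gpihbp1, which anchors LPL on capillary endothelium, was the only 1 of 5 called in the average. It read 113.9 and 27.5 in double KO corneas and 15.6 and 26.2 in Dscr1KO, against 1.1 and 8.7 in ApoeKO and 1.5 and 10.3 in WT, with an average of 2.25 ± 0.55 (SE, adjusted p = 0.0181). All intact arrays without Dscr1 lay above those with it. Both ApoeKO values and that of WT replicate 1 lay below the low-value limit, so the size of the Gpihbp1 difference is uncertain. Gpihbp1 is also in the blood endothelial list. Angptl4, an LPL inhibitor, had 0.70 ± 0.50 (adjusted p = 0.322) and Lmf1, which helps the lipase mature, 0.50 ± 0.21 (adjusted p = 0.110).

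Among 8 genes of fatty acid uptake and activation, Slc27a3, a member of the fatty acid transport family, was higher in the average (2.34 ± 0.45, adjusted p = 0.00656), as was Got2 (0.53 ± 0.16, adjusted p = 0.0416), while Acsl5, an acyl-CoA synthetase, fell by 0.52 ± 0.10 (adjusted p = 0.00687). All intact WT and ApoeKO values of Slc27a3 (1.1 to 3.9) lay below the low-value limit, so the size of its difference is uncertain. Of 4 lipoprotein receptor genes, Lrp1, a large receptor for APOE-rich remnants, was called higher (1.05 ± 0.12, adjusted p = 8.38e-04), and Mylip, which directs the LDL and VLDL receptors to breakdown, lower (-0.93 ± 0.28, adjusted p = 0.0369). Scavenger receptor genes called higher were 3 of 7, namely Stab1 (2.58 ± 0.21, adjusted p = 2.17e-04), Cxcl16 (1.27 ± 0.20, adjusted p = 0.00306) and Cd68 (1.19 ± 0.22, adjusted p = 0.00623), of which Cd68 is also in the macrophage list.

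In the list for droplet coat and esterification 5 of 7 were called higher and 1 lower in the average, beside 16.3% of all genes higher and 15.4% lower. Cidea, a droplet protein, gave 3.38 ± 0.40 (SE, adjusted p = 8.94e-04), Dgat2, an enzyme of triglyceride synthesis, 0.99 ± 0.12 (adjusted p = 8.65e-04) and Hilpda, an inhibitor of triglyceride lipase, 0.93 ± 0.17 (adjusted p = 0.00599). Cidea lay below the low-value limit on both intact WT arrays (0.8 and 0.6) and on ApoeKO replicate 2 (3.5), so the size of its difference is uncertain. Plin3, another droplet coat gene, was lower at -0.70 ± 0.15 (adjusted p = 0.0105). Of 11 genes of lipolysis and lysosome, Nceh1, a cholesterol ester hydrolase gene (1.80 ± 0.25, adjusted p = 0.00194), G0s2, an inhibitor of adipose triglyceride lipase (1.30 ± 0.36, adjusted p = 0.0289), and Ctsd, a lysosomal protease gene (0.76 ± 0.13, adjusted p = 0.00415), were called higher and Lipm lower (-0.92 ± 0.19, adjusted p = 0.00942). Of the 7 tested regulators and partners of the PPAR family, Cebpb (1.47 ± 0.29, adjusted p = 0.00772), Cebpa (1.36 ± 0.22, adjusted p = 0.00316) and Ppard (0.64 ± 0.20, adjusted p = 0.0421) were called higher and Ppara lower (-1.34 ± 0.28, adjusted p = 0.00955). All Ppara values of intact corneas without Dscr1 (3.5 to 8.5) lay below the low-value limit, so the size of that fall is uncertain. Pparg, the fat cell regulator, lay below the low-value limit, with intact values of 0.9 to 9.4.

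Suturing was compared over 3 sutured and 4 intact arrays of the Dscr1KO and WT genotypes, with genotype as a term. None of the 9 genes passed in limma, nor did any other gene (0% of all), while 5 of the 9 and 1251 of all genes had an unadjusted p under 0.05. The largest were Cd36 at 2.33 ± 0.43 and Lpl at 1.92 ± 0.46 higher on the log2 scale (SE, adjusted p = 0.349 and 0.398) and Vldlr at -1.31 ± 0.24 (adjusted p = 0.349). Within WT alone, the day 5 and day 7 arrays were pooled as sutured, so the spread also holds the difference between days. With 2 sutured and 2 intact arrays there, 3 were higher and 1 lower past the threshold, beside 3.28% of all genes higher and 1.4% lower (4.68% in all). Without the sutured Dscr1KO array, the fit over both genotypes called 136 genes and none of the 9.

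In WT, Fabp4 read 47.3 at day 5 and 52.9 at day 7 in sutured corneas, against 7 and 3.5 in intact ones, a difference of 2.63 ± 0.31 (SE, adjusted p = 0.0137). With intact WT below the limit of 9.5 for Fabp4, Cd36 and Msr1, geometric means were at least 5.26-fold, 2.65-fold and 3.62-fold higher in sutured WT corneas. Cd36 read 16.8 and 37.7 in sutured corneas, against 0.5 and 2.9 in intact ones (2.49 ± 0.47, adjusted p = 0.0439), and Msr1 26.2 and 45.1, against 7.1 and 8 (1.77 ± 0.33, adjusted p = 0.0444). The sutured arrays lay above the intact arrays for Fabp4, Cd36 and Msr1, and 8 of the 9 genes did not overlap, against 56.5% of all genes. Vldlr read 62.7 and 45.1 in sutured WT corneas, against 182.8 and 155.8 in intact ones (-1.60 ± 0.21, adjusted p = 0.0174), with no overlap. Lpl read 48.3 and 131.1, against 16.1 and 18.7 (2.0 ± 0.45, adjusted p = 0.0669). Macrophage markers summed to 3484.5 and 4508.7 on these sutured WT arrays, against 538.6 and 522.6 on the intact ones. Blood endothelial markers summed to 261.7 and 712.5, against 121.6 and 114.3, and the part of either cell type in the differences was not tested. Intact WT arrays carried high lens markers (3802.4 and 2712.7), against 197.4 at day 5 and 2406.1 at day 7.

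In Dscr1KO, the sutured array did not lie above the intact arrays for Fabp4, Msr1 or Fabp5. Fabp4 read 69 in the sutured Dscr1KO cornea, against 100.8 and 359.6 in intact ones, and Msr1 35.3, against 78.2 and 40.5. Fabp5 read 6269.6, against 7536.2 and 12774. Lpl, in contrast, read 478 in the sutured Dscr1KO cornea, above 233.4 and 75.5 in intact ones, and Cd36 read 123, above 42.9 and 15.3. Suturing in Dscr1KO minus suturing in WT was -4.05 ± 0.89 for Fabp4 (adjusted p = 0.138), -2.40 ± 0.63 for Msr1 (adjusted p = 0.197) and -0.18 ± 0.96 for Lpl (adjusted p = 0.942), and no member passed (0.606% of all genes did, 0.0866% higher and 0.519% lower). The single sutured Dscr1KO array is assumed there to vary like the other groups. Leaving out Dscr1KO intact replicate 1 or 2 sets 1 sutured against 1 intact Dscr1KO array with a spread from WT arrays alone. The Fabp4 value was then -4.95 (adjusted p = 0.00473) without replicate 1 and -3.15 (adjusted p = 0.0401) without replicate 2, and that of Fabp5 -1.62 (adjusted p = 0.0287) without replicate 1. Cornified markers summed to 311.2 on the sutured Dscr1KO array, against 17144 and 34068 on the intact ones. Xist read 9.7 or less on every sutured array, against 4104 and 5385.2 on the intact Dscr1KO arrays, and the part of either in these differences was not tested.

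**Figure D4:**
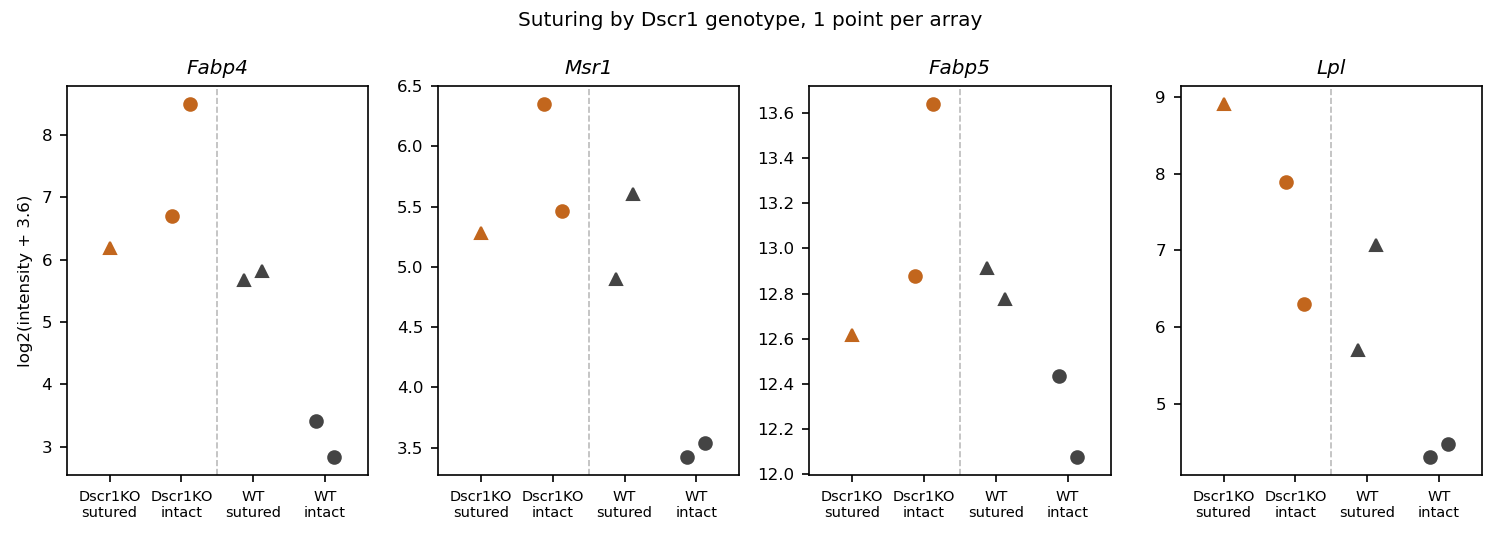
Log2(intensity + 3.6) of Fabp4, Msr1, Fabp5 and Lpl in sutured (triangles) and intact (circles) corneas of Dscr1KO and WT mice, 1 point per array. Sutured WT arrays lie above intact WT arrays in all 4 panels, while the 1 sutured Dscr1KO array lies below both intact Dscr1KO arrays for Fabp4, Msr1 and Fabp5 and above them for Lpl.

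Sutured arrays of different genotype have no replicate, so their differences carry no test. At day 5 the Dscr1KO cornea differed from the WT cornea by 1 or more on the log2 scale in 3 of the 9 genes, all higher, beside 4.19% of all genes higher (6.12% in either direction). Lpl read 478 against 48.3 (3.21), which was above 99.99% of the genes in this comparison, Cd36 123 against 16.8 (2.63) and Plin2 316.7 against 151.8 (1.04). Lipa read 313 against 169.3 (0.87) and Vldlr 35 against 62.7 (-0.78). Fabp4 read 69 against 47.3 (0.51) and Msr1 35.3 against 26.2 (0.38), both smaller than in intact corneas. Macrophage markers summed to 7554.1 on the Dscr1KO array and 3484.5 on the WT array, and blood endothelial markers to 904.6 and 261.7. The part of either cell type in these differences was not tested.

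At day 7 the Tg cornea was lower than the WT cornea by 1 or more in 1 of the 9 genes, beside 3.53% of all genes lower (4.29% in either direction). The Rcan1 probe set read 548.3 in Tg, against 579.7 in WT, so it showed no gain of Dscr1 RNA on the Tg array. Lpl read 31.4 in Tg, against 131.1 in WT (-1.94). Msr1 read 23.3 against 45.1 (-0.86), Cd36 20.6 against 37.7 (-0.77), Fabp4 33.7 against 52.9 (-0.60) and Lipa 162 against 244.8 (-0.58). The median over the 9 genes was -0.58, against -0.07 over all genes. Macrophage markers summed to 2983.6 in Tg and 4508.7 in WT, and blood endothelial markers to 296.6 and 712.5. The part of either cell type in these differences was not tested.

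In WT the day 7 cornea was higher than the day 5 cornea by 1 or more in 2 of the 9 genes, beside 3.32% of all genes higher (5.32% in either direction). Lpl read 131.1 at day 7 against 48.3 at day 5 (1.38), and Cd36 37.7 against 16.8 (1.02). Msr1 read 45.1 against 26.2 (0.71), Lipa 244.8 against 169.3 (0.52) and Plin2 218.5 against 151.8 (0.52). Over all 4 sutured arrays, Lpl and Cd36 stood in nearly the same order, highest in Dscr1KO at day 5 and second in WT at day 7.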

How the data were processed

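RNA of 12 whole mouse corneas was measured, 1 array per sample. Per the labels' protocols, it was extracted with RNeasy columns and biotin-labelled by Affymetrix's standard method. The deposited table holds linear intensity per probe set. No label states the scaling, but in the deposited values every array has a mean of 100 once 2% is trimmed from each end, so a change is relative to the other transcripts of an array. The software that made them was not given in the sources used here.

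Groups follow the title labels, and no sample was moved for its values. Of 45101 probe sets, 34958 carry 1 symbol in the platform table and were used, 932 carry several and 9211 none. The brightest stood for each gene. Values became log2(intensity + 3.6), with 3.6 taken as percentile 20 of the whole table. Genes whose mean log2 reached percentile 40 of the probe sets (3.71, an intensity of 9.5) were tested, 12706 in number, 9 of the 10 lipid genes among them. Lower bounds, added after seeing the data, divide a group's geometric mean by the intensity at this limit where both intact WT arrays lay below it. They make no allowance for the spread between arrays. Intact groups were fitted together with limma 3.58.1 in R 4.3.3 (1 coefficient per group, intensity trend) with Benjamini-Hochberg adjustment at 0.05 within each comparison. For intact groups, p-values measure the spread between samples that the labels call biological replicates. In the suturing fits, sutured arrays of day 5 and day 7 were pooled, so the spread also holds the difference between days. The script was tested on simulated data. Single sutured arrays were compared without a test, against a difference of 1 on the log2 scale. Tables were made in python 3.11.15 with pandas 2.3.3, and figures with matplotlib 3.10.9.

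All 10 genes are named. From each of 7 lists of other lipid genes, up to 4 with the largest change among those passing in double KO against WT or in the average for Dscr1 loss are named, and up to 2 others. Marker lists of corneal epithelium, keratocytes, macrophages, adipocytes, blood endothelium, cornified epithelium, skeletal muscle, sebaceous and meibomian gland, lens and photoreceptors are given as counts and sums. Likeness names the 2 genes of highest Pearson r over 12 arrays. The genes, lists and tests were chosen with earlier results of these data known. Alternatives were no filter, a filter at the 60th percentile (9866 genes), pseudocounts of 1.2 and 6.4, quantile normalization, no intensity trend, the mean over all probe sets, only the groups compared, a replicate block, WT arrays only, each array left out, and the arrays of doubtful Apoe level or label left out. Fits on the 5 intact arrays with Xist, with a term for Xist, and of suturing by Dscr1 genotype were added after seeing the data. Deviations of same-numbered arrays from their group means correlated between -0.046 and 0.074, so they showed no shared shift. Whether same-numbered samples were collected or processed together cannot be read from these values.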

Additional observations from a re-analysis of the deposited data

Results flagged for a closer look

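Suturing went with opposite directions in the 2 genotypes for Fabp4, Msr1 and Fabp5. These genes were picked for that difference in the same data. In WT, both sutured arrays lay above both intact arrays, while the 1 sutured Dscr1KO array lay below both intact Dscr1KO arrays. For Fabp4 the suturing difference was -1.42 in Dscr1KO and 2.63 in WT, and the difference between them was -4.0514 on the log2 scale (SE 0.89, adjusted p = 0.138 by limma over 12706 genes). For Msr1 it was -0.63 in Dscr1KO and 1.77 in WT, a difference of -2.4004 (SE 0.63, adjusted p = 0.197). For Fabp5 it was -0.65 in Dscr1KO and 0.59 in WT, a difference of -1.235 (SE 0.45, adjusted p = 0.318). None of the 3 passed with all 7 arrays, where the single sutured Dscr1KO array is assumed to vary like the other groups. Intact WT values of Fabp4 and Msr1 lay below the low-value limit. Left out 1 at a time, the arrays gave -4.95 to -3.15 for Fabp4, -2.85 to -1.95 for Msr1 and -1.62 to -0.85 for Fabp5, with the same sign each time. The sutured Dscr1KO array itself could not be left out, since it is the only one. Cornified markers summed to 311.2 on the sutured Dscr1KO array, against 17144 and 34068 on the intact Dscr1KO arrays, and their part in these differences was not tested. Xist read 6 on the sutured Dscr1KO array, against 4104 and 5385.2 on the intact ones, and 8.2 to 14.9 on the WT arrays. Xist and suturing therefore cannot be told apart in Dscr1KO.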

How the results depend on the processing

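Counts of the 9 genes called depended on the analysis, while directions did not turn for any called gene. Over 1299 values of single genes under an alternative, 1180 kept their side of the threshold and direction or passed under neither setting, 95 no longer passed, 24 newly passed and 0 reversed; 66 values that passed under neither setting changed sign. For the average of Dscr1 loss, 7 genes were called, against 2 with the mean over all probe sets, 3 with no intensity trend, 4 with the replicate block and 1 on the 5 intact arrays with Xist, where 683 of all genes were called. Leaving out 1 array gave 2 to 6. A term for Xist gave 6, and since Xist differs within a group only between the double KO arrays, this fit is close to one without double KO replicate 1. Double KO against WT called 4, against 2 with the filter at the 60th percentile, which leaves Cd36 and Msr1 untested, and 1 to 6 with 1 array left out. Dscr1KO against WT called 3, against 1 with no filter, 1 with no intensity trend and 1 with the filter at the 60th percentile, and 0 to 2 with 1 array left out. Double KO against ApoeKO called 3, against 1 to 3 with 1 array left out. Suturing called 0, against 4 in WT arrays only, and suturing by Dscr1 genotype called 0, against 0 to 2 with 1 array left out. Same-numbered arrays showed no shared shift, and the replicate block changed no other of these counts by more than 1.5 times. Of 81 single-array differences, 2 moved under an alternative and 0 reversed. Causes of these changes were not tested. With 2 arrays a group, a gene near the threshold passes or not with 1 array, and values below an intensity of 9.5 have no order.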

Other observations

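Over the 12 arrays, Vldlr correlated negatively with 7 of the other 8 tested genes, between -0.56 for Lipa and -0.15 for Plin2, and positively with Scarb1 (Pearson r = 0.578). Plin2, the droplet coat gene, was most like Dnmt3a (r = 0.878) and Mfge8, which encodes a bridge for the uptake of dying cells (r = 0.866). Scarb1 was most like Cplx2 (r = 0.874) and Lgals4 (r = 0.859), Vldlr like Rab10os (r = 0.914) and Map2 (r = 0.905), and Fabp5 like Prelid1 (r = 0.929) and Hspa5, a chaperone gene (r = 0.929). Apoc1, which encodes another apolipoprotein, read 16.6 and 12 in double KO, 497.3 and 403.1 in Dscr1KO, 327.8 and 3.5 in ApoeKO and 333.9 and 384.7 in WT, so ApoeKO replicate 1 was near WT for this gene as well as for Apoe.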
